A study of Mus musculus with 12 samples.

Results

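The expression of 8 genes of the Th17 program was described in kidney CD4 T cells of mice, isolated by flow sorting. The genes were Rora and Ahr, which encode transcription factors, Il17a, the signature cytokine, the receptor genes Ccr6, Il23r and Il1r1, and the paired membrane protein genes Tmem176a and Tmem176b. They were chosen by symbol and matched by Ensembl identifier, and all 8 were found among the 52632 genes of the deposited table. The values were FPKM (fragment counts divided by transcript length and by library size). Tests took in the 19288 genes whose mean over all libraries reached 1 FPKM, and 6 of the 8 genes passed that filter. Il23r and Il1r1 lay just under it, with means of 0.909 and 0.936 FPKM, and are described without a call.

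There were 12 libraries, 3 in each of 4 groups. KO IRI cells came from CD4 Keap1 KO mice after ischemia-reperfusion injury (IRI), in which both renal pedicles were clamped for 30 min and the kidneys were taken after 24 h. KO control cells came from CD4 Keap1 KO mice that were not given the injury. WT IRI and WT control cells came from WT mice treated in the same ways. All mice had the C57BL6/J background. The WT mice were bought and the KO mice were made in house, so genotype and source of the mice cannot be told apart. Ages, how Keap1 was deleted, and whether controls had sham surgery are not given in the sources used here. The labels do not say that libraries of a group came from separate animals, and the p-values therefore reflect only how these libraries scattered, which may be technical. In all comparisons of KO with WT, a positive log2 difference means higher in KO, and in all comparisons of IRI with control, higher in IRI.

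Th17 cells are CD4 T cells that make IL-17A and IL-17F and defend mucosal surfaces against bacteria and fungi. RORα, encoded by Rora, is a nuclear receptor that helps to drive the program. IL-6 and TGF-β start it, IL-1 and IL-23 sustain it, and CCR6 leads the cells toward its ligand CCL20. AHR, a receptor for dietary and microbial ligands, supports IL-22 production by these cells. Keap1 holds the transcription factor NRF2 at low levels, so loss of Keap1 is known to raise NRF2 target genes.

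Promoter windows from 250 bases before to 50 bases after the annotated start were taken from RefSeq on GRCm38.p6, and 7 of the 8 genes had one. Both strands were searched for AGGTCA, the element that RORα is known to bind, for TGACNNNGC, the core of the antioxidant response element bound by NRF2, and for GCGTG, the core of the AHR element. AGGTCA lay in the windows of Il17a, Ccr6 and Il23r, TGACNNNGC in that of Il23r, and GCGTG in those of Rora and Il1r1. A second Ccr6 window, at chr17:8242276-8242575, held no match. Neither did the window of Tmem176a, a gene that was also higher in every KO library. Of 32841 RefSeq windows of the same length, 16.3% held AGGTCA, 12.4% TGACNNNGC and 32.4% GCGTG. These shares count every window of a gene. A match is only a match of letters. The 3 windows with AGGTCA, shown because their genes were higher in every KO library, are given with the motifs in capitals (TGACCT is AGGTCA read on the other strand, and TGACAAGGC in Il23r is the TGACNNNGC match). They lie at chr1:20730655-20730954 on the plus strand (Il17a), chr17:8235793-8236092 on the plus strand (Ccr6) and chr6:67491806-67492105 on the minus strand (Il23r).
Il17a: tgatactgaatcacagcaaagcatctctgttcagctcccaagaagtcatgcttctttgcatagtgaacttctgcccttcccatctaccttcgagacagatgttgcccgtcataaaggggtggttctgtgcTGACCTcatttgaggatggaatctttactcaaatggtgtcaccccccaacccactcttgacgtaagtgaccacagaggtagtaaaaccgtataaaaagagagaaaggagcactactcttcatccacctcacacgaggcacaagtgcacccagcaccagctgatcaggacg
Ccr6: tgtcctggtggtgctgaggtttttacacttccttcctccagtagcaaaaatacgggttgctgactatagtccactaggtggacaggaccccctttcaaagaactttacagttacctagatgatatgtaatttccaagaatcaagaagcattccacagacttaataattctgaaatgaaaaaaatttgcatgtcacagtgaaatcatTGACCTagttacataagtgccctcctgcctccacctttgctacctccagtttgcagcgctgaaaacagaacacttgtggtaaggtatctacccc
Il23r: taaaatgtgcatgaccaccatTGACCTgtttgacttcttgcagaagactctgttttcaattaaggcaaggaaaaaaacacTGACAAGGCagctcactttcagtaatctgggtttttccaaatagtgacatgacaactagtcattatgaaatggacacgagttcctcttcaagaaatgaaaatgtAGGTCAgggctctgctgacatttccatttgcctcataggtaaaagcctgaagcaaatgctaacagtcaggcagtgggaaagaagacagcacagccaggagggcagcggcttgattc

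Tmem176a and Tmem176b stand head to head on chromosome 6, and their promoter windows overlap by 208 bases. The Tmem176a window is shown because the pair shares it. It spans chr6:48841233-48841532 on the plus strand of GRCm38.p6, and the bases that also belong to the window of Tmem176b, which is read from the minus strand, are in capitals. None of the 3 motifs matched in either window.
Tmem176a: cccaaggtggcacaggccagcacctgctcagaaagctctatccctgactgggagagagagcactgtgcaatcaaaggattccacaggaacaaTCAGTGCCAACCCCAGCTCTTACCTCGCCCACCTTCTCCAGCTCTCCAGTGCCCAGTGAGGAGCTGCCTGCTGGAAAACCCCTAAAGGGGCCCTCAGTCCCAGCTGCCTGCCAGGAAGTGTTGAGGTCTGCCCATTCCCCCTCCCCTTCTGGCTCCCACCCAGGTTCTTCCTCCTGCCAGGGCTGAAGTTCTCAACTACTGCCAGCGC

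Summed FPKM ran from 739969 to 2089551 per library, and the depth in reads is unknown. Because the median log2 difference of all tested genes between KO and WT was 0.292 as deposited, and 0.0353 after rescaling by median ratios, tests used rescaled values, and single-library levels are as deposited unless called rescaled. Keap1 was 4.59 to 7.77 FPKM in the 6 KO libraries and 6.03 to 9.87 FPKM in the 6 WT libraries, and its whole-gene value need not register a deleted exon. Nqo1, a classical NRF2 target, was 3.38 to 7.75 FPKM in KO and 0 to 0.543 FPKM in WT. A few libraries stood apart: WT IRI 3 and WT control 3 had the lowest sums (739969 and 859343), and KO control 1 had the highest summed levels of B cell (344 FPKM), macrophage (371 FPKM) and dendritic cell (1930 FPKM) markers. The 12 CD4 T cell markers were detected throughout and summed to 1384 to 1860 FPKM in KO IRI, 1991 to 2956 in KO control, 743 to 850 in WT IRI and 1606 to 1747 in WT control. In such sorted bulk samples, fewer cells of a type and less RNA per cell cannot be told apart.

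Of the 8 genes, Rora was the most abundant, with a mean of 39.0 FPKM over the 12 libraries, followed by Tmem176b at 22.5 FPKM. Tmem176a (9.22 ± 7.96 FPKM), Ccr6 (7.07 ± 6.64) and Ahr (6.03 ± 2.5) came next, with overlapping spreads (SD, n = 12). This spread takes in both genotypes and so includes any difference between them. Within WT alone, every Ahr value was above every Ccr6 value. Il17a (1.57 ± 1.84), Il1r1 (0.936 ± 0.511) and Il23r (0.909 ± 0.853) had the lowest means, with spreads over both genotypes that also overlapped. FPKM is scaled for length, so these levels can be set beside each other.

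**Figure D1:**
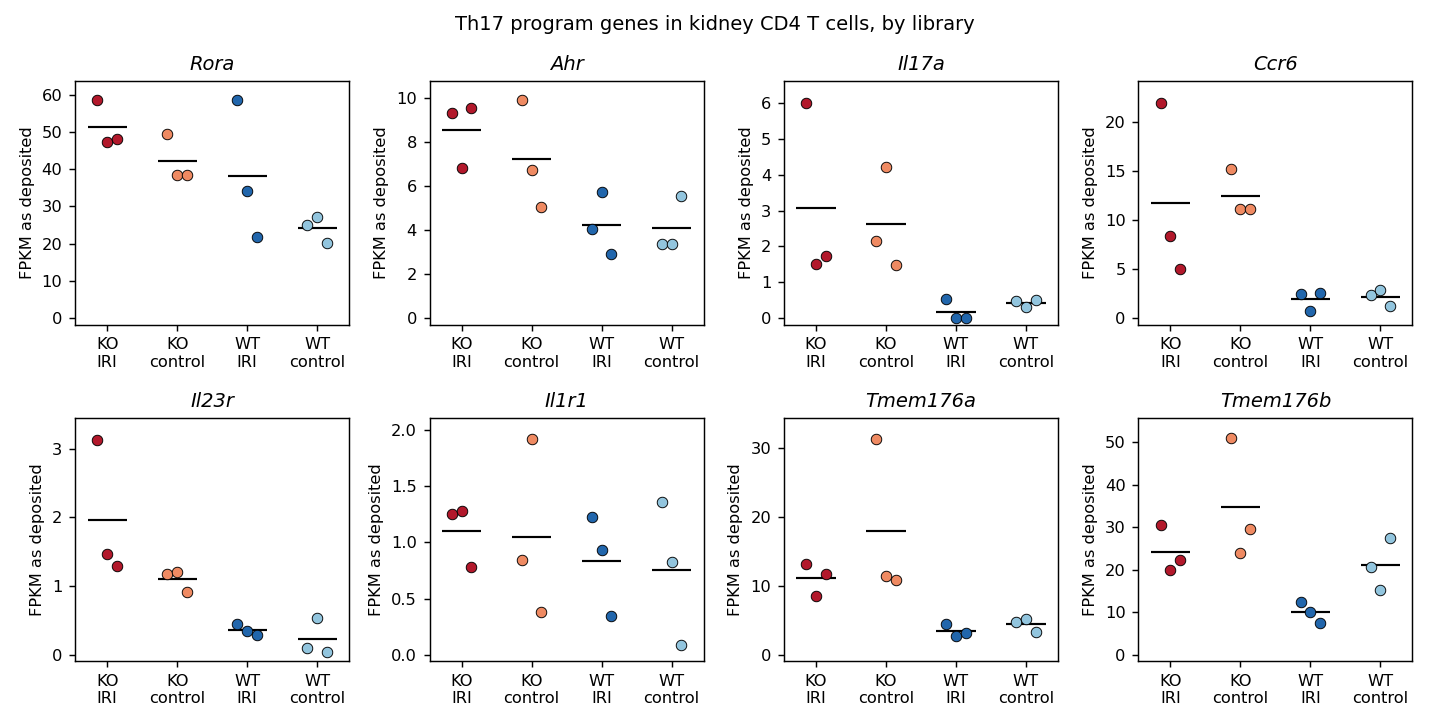
Level of each Th17 program gene in FPKM as deposited (vertical axes, linear) in the 3 libraries of each group (points) with the group mean (black lines). For Il17a, Ccr6, Il23r and Tmem176a every KO point lies above every WT point, while the groups of Il1r1 overlap.

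The genotypes were compared over all 12 libraries by averaging the KO minus WT difference over control and IRI. Ccr6 and Tmem176a rose in KO, by a log2 of 1.79 ± 0.32 and 1.29 ± 0.22 (SE, n = 6 per genotype). Il17a was higher in all 6 KO libraries without passing the test after rescaling. Tmem176b, Ahr and Rora had smaller positive differences that did not pass. The difference of Rora turned to −0.11 when libraries were scaled by CD4 T cell markers, a scale on which the median tested gene was lower still. By limma with Benjamini-Hochberg adjustment over all tested genes, 2 of the 6 tested genes were higher and 0 were lower, where 0.378% of all tested genes were called higher and 0.171% lower. As deposited, 5 of the 6 were called higher, beside 11.9% of all tested genes. The median log2 difference of the 6 genes was 0.96, beside 0.04 for all tested genes.

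Ccr6 (chr17:8236043-8257141, GRCm38, plus strand) encodes the chemokine receptor that marks most Th17 cells. It read 22.0, 8.35 and 4.96 FPKM in KO IRI and 15.2, 11.1 and 11.1 FPKM in KO control, against 2.41, 0.746 and 2.5 FPKM in WT IRI and 2.34, 2.85 and 1.24 FPKM in WT control. Every KO library stood above every WT library, and the 3 KO IRI libraries were spread more widely than the 3 KO controls. The rise of 1.79 on the log2(rescaled FPKM + 1) scale had a 95% interval of 1.08 to 2.50 (adjusted p = 0.0479). With single libraries left out the log2 difference stayed between 1.54 and 2.00, but its adjusted p was under 0.05 only without KO IRI 3 (0.0447) or KO control 2 (0.023). Leaving out any one of the other 10 libraries ended the call, with adjusted p from 0.0594 to 0.114.

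Il17a (chr1:20730905-20734496, plus strand) read 6.01, 1.51 and 1.73 FPKM in KO IRI and 2.15, 4.23 and 1.47 FPKM in KO control. It read 0.525 FPKM in WT IRI 1, with a listed value of 0 in the other WT IRI libraries, and 0.476, 0.295 and 0.493 FPKM in WT control. The lowest KO value, 1.47 FPKM, was thus well above the highest WT value. The log2 difference was 1.33 ± 0.31 after rescaling (adjusted p = 0.0616) and 1.47 as deposited (adjusted p = 0.0282), so the call depended on the scaling. Leaving out KO control 2 also brought it past the threshold after rescaling (adjusted p = 0.0461). Il17f, which encodes the partner cytokine and lies beside Il17a on chromosome 1, was not called between genotypes. Il17f read 3.73, 2.44 and 4.12 FPKM in KO IRI, 0.823, 3.62 and 1.36 in KO control, 2.3, 2.15 and 2.13 in WT IRI and 1.93, 1.63 and 1.6 in WT control. As deposited its KO IRI values were above its WT IRI values, while the genotypes overlapped in controls and, after rescaling, also in IRI. Its log2 difference averaged over condition was 0.03 ± 0.24 (95% interval −0.50 to 0.56, adjusted p = 0.963).

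Ratios within single libraries cancel the scaling between them only for values well above the pseudocount of 1. All WT values of Il17a lay below it, so the WT ratio depends mainly on Il17f. Within single libraries, log2(Il17a + 1) minus log2(Il17f + 1) averaged 0.04 ± 0.63 in KO and −1.20 ± 0.36 in WT (SD, n = 6 each). The difference of 1.24 had p = 0.00433 (exact permutation test, two-sided) and 0.0173 after adjustment over 4 such ratios, and 5 of 6 KO libraries stood above the highest WT library. The gene pairs of these ratios were chosen after their values had been seen. The smallest p this design allows is 0.00216. Il22, a further cytokine of these cells, stayed low and was listed at 0 in KO IRI 2, KO control 1 and WT control 3, and its highest value was 1.08 FPKM in KO IRI 1. The log2 difference of Il22 was 0.06 ± 0.22 in the fit without the filter (adjusted p = 0.904).

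Il23r (chr6:67422932-67491855, minus strand) encodes the subunit that gives the IL-23 receptor its specificity. It read 3.13, 1.46 and 1.29 FPKM in KO IRI and 1.18, 1.2 and 0.908 FPKM in KO control, against 0.453, 0.337 and 0.291 FPKM in WT IRI and 0.0937, 0.531 and 0.0392 FPKM in WT control. All KO values lay above all WT values. In the fit without the filter on low values its log2 difference was 0.80 ± 0.18 (adjusted p = 0.12). Il1r1 (chr1:40225080-40317257, plus strand), the signalling receptor for IL-1, read 1.25, 1.28 and 0.778 FPKM in KO IRI, 0.842, 1.92 and 0.384 in KO control, 1.23, 0.933 and 0.344 in WT IRI and 1.36, 0.824 and 0.0877 in WT control. Its groups overlapped in every comparison, and its log2 difference between genotypes was 0.10 ± 0.27 (adjusted p = 0.854 without the filter). A predicted transcript on the same strand, Gm38070, overlaps Il1r1 by 6480 bp, so the 2 values may share reads.

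Tmem176a (chr6:48840919-48847071, plus strand) and Tmem176b (chr6:48833818-48841496, minus strand) encode related ion channel proteins of intracellular membranes that are known from Th17 cells and from dendritic cells. Tmem176a read 13.2, 8.53 and 11.7 FPKM in KO IRI and 31.4, 11.5 and 10.9 FPKM in KO control, against 4.4, 2.71 and 3.09 FPKM in WT IRI and 4.68, 5.19 and 3.29 FPKM in WT control. All KO libraries were above all WT libraries, and KO control 1 was far above the other KO libraries. Its rise of 1.29 had a 95% interval of 0.80 to 1.77 (adjusted p = 0.0404), and without KO control 1 it was 1.10 (adjusted p = 0.0425). The call was also kept without KO control 2 (0.0134) and was lost without any one of the other 10 libraries, with adjusted p from 0.0552 to 0.0932.

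Tmem176b read 30.5, 19.9 and 22.3 FPKM in KO IRI and 50.9, 23.9 and 29.6 FPKM in KO control, against 12.3, 9.95 and 7.51 FPKM in WT IRI and 20.5, 15.2 and 27.5 FPKM in WT control. The genotypes were apart after IRI and overlapped in controls, where WT control 3 exceeded KO control 2. Its log2 difference averaged over condition was 0.64 ± 0.18 (adjusted p = 0.0834, and 0.0329 as deposited). Within libraries, log2(Tmem176a + 1) minus log2(Tmem176b + 1) averaged −1.03 ± 0.24 in KO and −1.66 ± 0.60 in WT (SD, n = 6 each). This difference of 0.63 had p = 0.0216 (exact permutation test, two-sided, adjusted p = 0.0433 over the 4 ratios). It was 0.41 without WT control 3 and 0.28 with a pseudocount of 5 (p = 0.208, exact permutation test). The genes overlap by 578 bp on opposite strands, and the strand setting of the counting is not given in the sources used here, so reads of that stretch cannot be assigned.

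Rora (chr9:68653786-69388246, plus strand) read 58.8, 47.3 and 48.3 FPKM in KO IRI, 49.5, 38.6 and 38.4 in KO control, 58.7, 34.1 and 21.8 in WT IRI and 25.1, 27.1 and 20.1 in WT control. The KO controls were all above the WT controls, while WT IRI 1 was as high as the highest KO library. Its log2 difference between genotypes was 0.34 ± 0.16 (adjusted p = 0.252). An antisense gene, Gm15511, overlaps it by 15359 bp. Ahr (chr12:35497974-35535038, minus strand) read 9.32, 6.84 and 9.56 FPKM in KO IRI, 9.93, 6.73 and 5.05 in KO control, 4.03, 5.73 and 2.91 in WT IRI and 3.37, 3.36 and 5.55 in WT control. Of the 6 KO libraries, 5 were above the highest WT library, and the log2 difference was 0.52 ± 0.18 (adjusted p = 0.132, and 0.0362 as deposited).

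**Figure D2:**
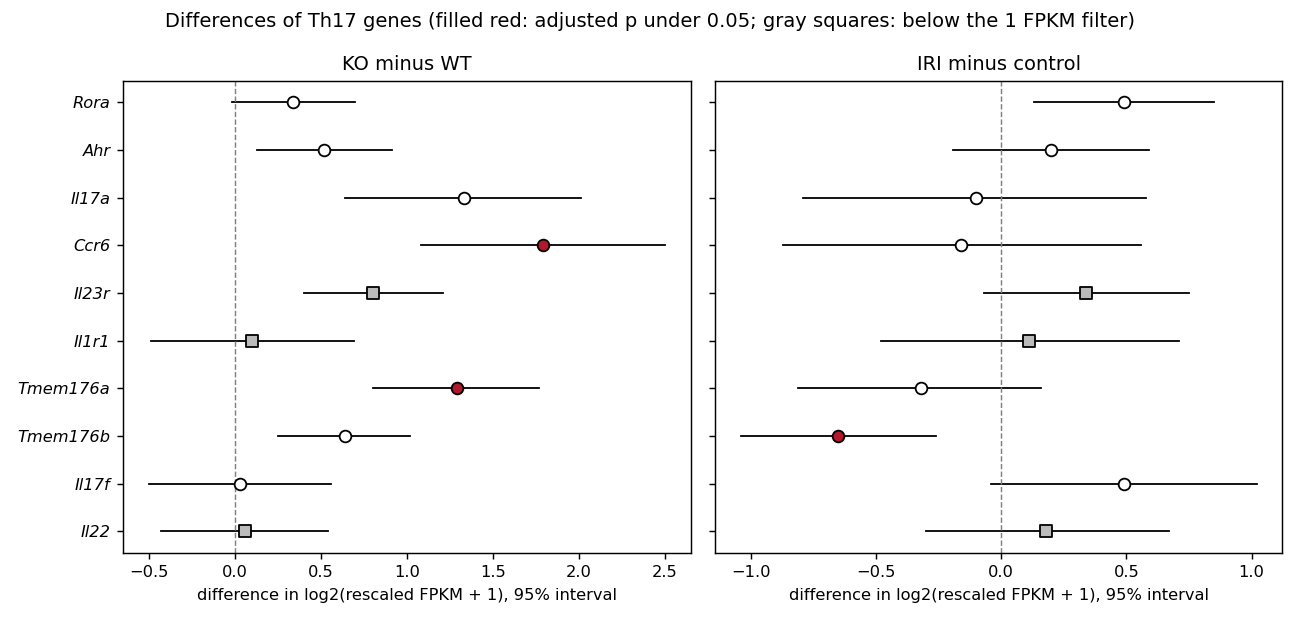
Differences in log2(rescaled FPKM + 1) (horizontal axes) with their 95% intervals for the 8 genes and for Il17f and Il22, KO minus WT on the left and IRI minus control on the right. Filled red points passed the test (Ccr6 and Tmem176a on the left, Tmem176b on the right), open points did not, and gray squares are genes below the filter.

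Complete separation of the genotypes, with all 6 KO libraries above all 6 WT libraries, was seen for Il17a, Ccr6, Il23r and Tmem176a on both scales, that is for 4 of the 8 genes and 3 of the 6 tested. After rescaling 0.778% of all tested genes were separated in that way. The average rests on the comparisons within controls and within IRI and shares all of its libraries with them. In KO control against WT control, 0 of the 6 genes were called by limma, where 0.0363% of all tested genes were, and 2129 tested genes had an unadjusted p under 0.05. The log2 differences there were 1.84 ± 0.45 for Ccr6 (adjusted p = 0.275), 1.36 ± 0.31 for Tmem176a (0.265), 1.10 ± 0.44 for Il17a (0.378) and 0.34 ± 0.25 for Tmem176b (0.646), each from limma with n = 3 per group. In KO IRI against WT IRI, 0 of 6 were called by limma, against 0.057% of all tested genes, with 3179 genes at an unadjusted p under 0.05. The differences after IRI were 1.74 for Ccr6 (adjusted p = 0.168), 1.21 for Tmem176a (0.164), 1.56 for Il17a (0.178) and 0.93 for Tmem176b (0.17).

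Markers of other cells were read beside these differences. CD4 T cell markers were themselves higher in KO: 2 of 12 rose, Cd4 by 1.30 ± 0.14 (adjusted p = 0.00484) and Cd5 by 0.84 ± 0.13 (0.0318), and 0 fell. Scaling each library by the mean of those 12 markers moved the median log2 difference of all tested genes to −0.36, with 0.29% of them called higher. On that scale Ccr6 differed by 1.42 (adjusted p = 0.0132), Il17a by 1.18 (0.0278) and Tmem176a by 0.88 (0.0263). Tmem176b (0.20, adjusted p = 0.454), Ahr (0.12, 0.682) and Rora (−0.11, 0.693) did not pass. γδ T cells and group 3 innate lymphoid cells are also known to express Il17a and Il23r. Of the γδ T cell markers 0 of 4 tested rose and 1 fell, Zbtb16, by 1.26 on the log2 scale, and their sums were 10.1 to 15 FPKM in KO IRI, 11.4 to 28 in KO control, 13.5 to 33.7 in WT IRI and 17.4 to 18.6 in WT control. Trdc, the δ chain constant gene, was above 0 in every library, at 0.831 to 1.37 FPKM in KO IRI, 1.09 to 2.65 in KO control, 0.721 to 1.18 in WT IRI and 0.704 to 1.44 in WT control. Of the 6 innate lymphoid markers 0 passed, with sums of 284 to 432 FPKM in KO IRI, 280 to 387 in KO control, 197 to 291 in WT IRI and 265 to 290 in WT control. Their part in the differences was not tested.

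Dendritic cells are a known source of Tmem176a and Tmem176b. Of 11 tested dendritic cell markers 0 passed between genotypes. As deposited, the 12 markers summed to 398 to 555 FPKM in KO IRI and 201 to 370 in WT IRI. They summed to 987 to 1930 in KO control and 462 to 771 in WT control, higher in KO under both conditions. After rescaling, the median log2 difference of the 11 tested markers was 0.60 in controls, beside 0.01 for all tested genes. After IRI it was only 0.09, beside 0.02. Cd74, Itgax and Flt3, given as examples from the 12 markers, were above 0 in every library. The part of these cells in the Tmem176a and Tmem176b values was not tested.

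Injury was compared as IRI against control averaged over genotype. Tmem176b fell, by 0.65 ± 0.18 on the log2 scale (SE, n = 6 per condition, adjusted p = 0.0337 by limma), and no other gene of the 6 passed. Rora was higher without passing (0.49 ± 0.16, adjusted p = 0.0728). Of the 6 tested genes, 0 were called higher and 1 lower, where 6.35% of all tested genes were called higher and 7.33% lower. The median log2 difference of the 6 was −0.13, beside 0.06 for all tested genes.

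In WT, all 3 IRI libraries had less Tmem176b than all 3 controls, and the log2 difference was −0.95 ± 0.25 (n = 3, adjusted p = 0.0434), 1 of 6 genes called lower beside 4.68% of all tested genes. In KO the IRI and control ranges overlapped, and the difference was −0.35 (adjusted p = 0.514). Of the 6 genes 0 were called in KO IRI against KO control by limma, beside 2.06% of all tested genes, and 3168 genes had an unadjusted p under 0.05. The difference between the genotypes in this response was 0.60 ± 0.35 for Tmem176b (interaction, adjusted p = 0.906). Interaction tests called 0 of the 6 genes by limma, beside 0.00518% of all tested genes, with 940 at an unadjusted p under 0.05.

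Markers of several cell types were read beside the fall of Tmem176b. Of the 12 CD4 T cell markers 9 fell and 0 rose in IRI averaged over genotype, and of 11 dendritic cell markers 6 fell and 0 rose. Within WT, 9 of the CD4 T cell markers fell, and 0 of the dendritic cell markers passed (median log2 difference −0.51). Within KO, 3 of the CD4 T cell markers and 4 of the dendritic cell markers fell (median −0.83 for the latter). Scaling libraries by the CD4 T cell markers shifted genes up in IRI as a whole, with a median log2 difference of 0.68 averaged over genotype and 0.90 in WT, and 56.5% of all tested genes were called higher in the average. On that scale Tmem176b differed by 0.13 averaged over genotype (adjusted p = 0.581) and by 0.04 in WT (0.911), above 0 but below the median gene. As deposited its fall did not pass (adjusted p = 0.0689), and without the 3 libraries that stood apart it was −0.41 (adjusted p = 0.139). Of the 12 fits that each left out 1 library, 4 kept the averaged call, those without KO control 2, KO control 3, KO IRI 1 or WT control 2 (adjusted p from 0.0182 to 0.0488). The call in WT was kept in 3 of 12, those without KO control 1, KO IRI 1 or WT control 2 (adjusted p from 0.0274 to 0.0495). The part of the other cells in this fall was not tested.

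Rora reached 50.7, 45.2 and 44.1 rescaled FPKM in KO IRI, against 37.1, 38.4 and 31.4 in KO control. It reached 59.7, 35.5 and 28.9 rescaled FPKM in WT IRI, against 27.4, 28.1 and 21.8 in WT control. On this scale the IRI libraries were above the controls of the same genotype in both genotypes, whereas they overlapped as deposited. Without WT IRI 3 the Rora difference was 0.60 (adjusted p = 0.0241). Scaled by the CD4 T cell markers it was 1.29 (adjusted p = 0.000586), on a scale where most tested genes were called higher and the median gene was at 0.68. The differences between IRI and control were −0.10 ± 0.31 for Il17a, −0.16 ± 0.32 for Ccr6 and −0.32 ± 0.22 for Tmem176a, and each 95% interval included 0. All of these were above 0 on the scale of the CD4 T cell markers, at 0.17, 0.46 and 0.38, and below its median gene. Ahr differed by 0.20 ± 0.18 (adjusted p = 0.505) and Il17f by 0.49 ± 0.24 (adjusted p = 0.217).

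Other genes of the pathway were read from lists of transcription factors, cytokines, receptors with their kinases, AHR partners, and brakes or rival fates. Between genotypes, 0 of 11 transcription factors, 0 of 4 cytokines, 0 of 7 AHR pathway genes and 0 of 11 brakes and rival fates passed in either direction, by limma averaged over condition. Of 16 receptors and kinases 1 rose and 0 fell, and 15 of the 16 had a difference above 0 (median 0.27, beside 0.04 for all tested genes). So had 11 of 12 CD4 T cell markers (median 0.41), 7 of 11 transcription factors and 1 of 4 cytokines. The receptor gene that rose was Tgfbr2, which encodes a subunit of the TGF-β receptor. It read 92.1, 98.5 and 105 FPKM in KO IRI and 97.0, 67.4 and 102 FPKM in KO control, against 57.7, 62.8 and 44.0 FPKM in WT IRI and 49.0, 48.4 and 48.1 FPKM in WT control. All KO values exceeded all WT values, and the rise was 0.53 ± 0.09 (adjusted p = 0.0379).

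More genes of these lists passed with injury, as did more of all tested genes (6.35% higher and 7.33% lower, against 0.378% and 0.171% between genotypes). Of the 11 transcription factors 3 rose and 2 fell in IRI averaged over genotype. Hif1a, the oxygen-regulated factor known to favour Th17 over regulatory T cells, rose by 1.68 ± 0.13 (adjusted p = 7.25e-05), and Stat3, which carries the IL-6 and IL-23 signals, by 1.17 ± 0.15 (0.00077). Nfkbiz, a nuclear IκB protein that aids Il17a transcription, rose by 1.07 ± 0.09 (0.000103), while Irf4, needed for Th17 differentiation, fell by 1.00 ± 0.20 (0.00858). The second factor that fell was Maf (−0.50 ± 0.13, adjusted p = 0.0303).

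Of the 16 receptors and kinases 5 rose and 3 fell. Il12rb1, the chain that pairs with Il23r in the IL-23 receptor and also serves IL-12, fell by 1.61 ± 0.18 (adjusted p = 0.000435). It read 12.0, 5.39 and 8.36 FPKM in KO IRI against 37.5, 17.2 and 24.2 FPKM in KO control, and 4.58, 2.94 and 3.54 FPKM in WT IRI against 15.1, 19.1 and 13.8 FPKM in WT control. Both genotypes thus had every IRI library under every control. Tgfbr1 fell by 0.58 ± 0.10 (0.00384), and Il7r, the IL-7 receptor chain, and Jak2, a kinase of the IL-23 receptor, rose by 0.86 ± 0.17 (0.00731) and 0.69 ± 0.13 (0.00747). The other genes past the threshold were Il6st, the shared IL-6 receptor subunit, Il17ra and the kinase gene Sgk1, which were higher, and the kinase gene Tyk2, which was lower. Among the 4 tested cytokines Il10, an anti-inflammatory cytokine that some Th17 cells make, rose by 1.25 ± 0.20 (0.00274), and the other three did not pass. Of the 7 AHR pathway genes 1 rose, the AHR target and repressor Tiparp (0.64 ± 0.11, adjusted p = 0.00341). Arnt, the partner of AHR, differed by 0.33 ± 0.11 without passing (adjusted p = 0.0805), and passed in WT IRI against WT control (0.61 ± 0.16, adjusted p = 0.0433).

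Among 11 brakes and rival fates 1 rose and 5 fell. Socs3, the inhibitor of STAT3 signalling, rose by 2.58 ± 0.16 (adjusted p = 3.71e-05). It reached 252, 230 and 286 FPKM in KO IRI against 41.6, 26.0 and 57.3 FPKM in KO control, and 128, 153 and 105 FPKM in WT IRI against 23.2, 20.3 and 29.7 FPKM in WT control. Tbx21, the gene of T-bet and a driver of the Th1 fate, fell by 1.86 ± 0.10 (adjusted p = 3.12e-05), with 5.78 to 8.15 FPKM in KO IRI against 22.9 to 29.5 FPKM in KO control, and 5.32 to 7.36 FPKM in WT IRI against 29.9 to 31.4 FPKM in WT control. The IRI and control libraries of these 2 genes did not overlap. Il27ra, a receptor that restrains Th17 cells, fell by 0.93 ± 0.17 (0.00564), and Gata3, the Th2 regulator, by 0.66 ± 0.14 (0.0104). Eomes, a T-box factor of cytotoxic cells (−0.59 ± 0.17, adjusted p = 0.0442), and Il2, a cytokine that restrains Th17 differentiation (−0.85 ± 0.21, 0.0248), were the others that fell. In the same comparison 9 of 12 CD4 T cell markers fell, with a median log2 difference of −0.88. Of 10 tested CD8 T and NK cell markers 6 fell, Eomes among them, with a median of −0.84. The part of the cell mix in the falls of the listed pathway genes was not tested.

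**Figure D3:**
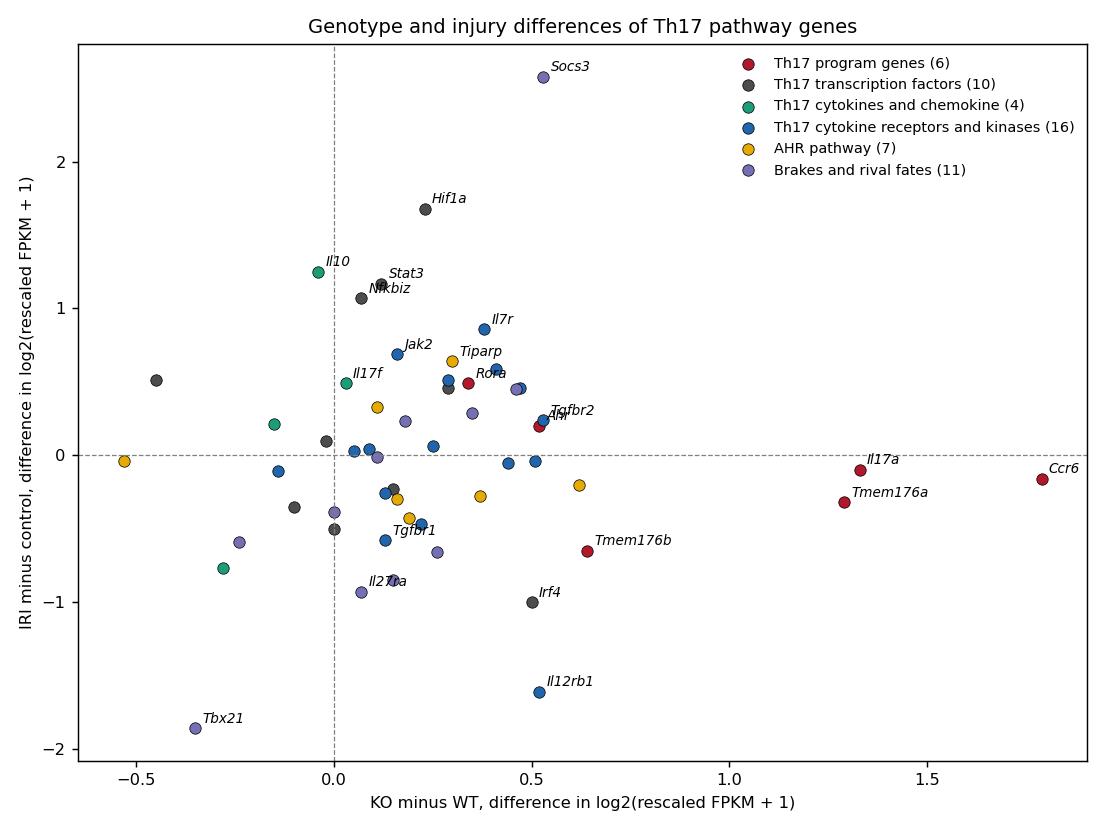
Difference between genotypes (horizontal axis, KO minus WT) against difference with injury (vertical axis, IRI minus control), both in log2(rescaled FPKM + 1), for the tested genes of each list that are reported here (colours, number of genes drawn in brackets). Ccr6, Il17a and Tmem176a lie far to the right and near 0 or below it on the injury axis, whereas Socs3, Hif1a and Tbx21 are spread along the injury axis.

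How far the genes varied together was described by Pearson correlation of log2(rescaled FPKM + 1) over the 12 libraries, which share the genotype and injury groups. Ccr6 correlated at 0.87 with Il17a, 0.86 with Tmem176a and 0.85 with Il23r, and Il17a with Il23r at 0.83. Tmem176a and Tmem176b correlated at 0.71, and Rora with Tmem176b at −0.12. Il1r1 was the least like the rest, at −0.15 to 0.53. Among 11613 genes compared, Tfe3 and Man2a1 were among the most like Il17a (0.85 each). The closest to Ccr6 were Inf2 and Emd (0.92 each), to Il23r Cpd (0.93), to Il1r1 Renbp (0.90), to Rora Rab4a (0.95) and to Ahr Ddx28 (0.86). Tmem176a was most like Cd4 (0.92), Txnrd1 and Prdx1 (0.91 each), and Tmem176b most like Trim35, Arhgdia and Crcp (0.95 each).

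**Figure D4:**
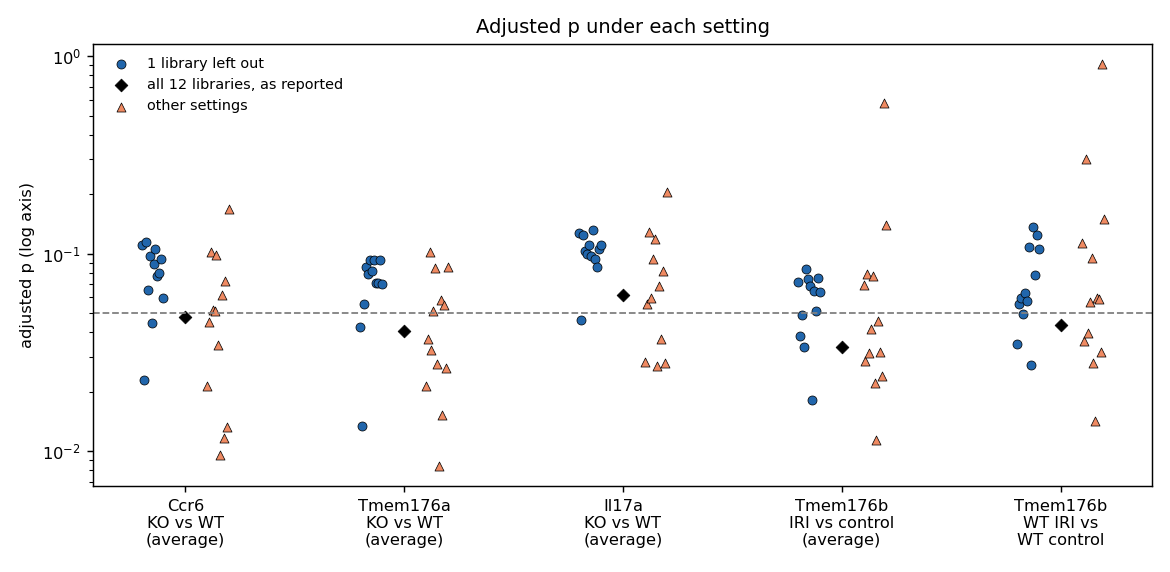
Adjusted p (vertical axis, log scale) of Ccr6, Tmem176a and Il17a between genotypes and of Tmem176b with injury, for all 12 libraries as reported (black diamonds), with each library left out in turn (blue circles) and under the other settings (orange triangles), with the threshold of 0.05 as a dashed line. The values lie on both sides of the threshold for every one of the 5 results, for example 0.023 to 0.114 for Ccr6 with 1 library left out.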

How the data were processed

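Total RNA from sorted kidney CD4 T cells was sequenced in 12 libraries (1 ng of RNA, paired 36 bp reads, per the labels' protocols). The authors deposited 1 FPKM value per gene and library, per the file headers. Without giving roles, the submitters' processing notes list Cufflinks 2.2.1, TopHat2 2.1.0, Partek 7.0, bcl2fastq 2.17.1.14 and the build GRCm38. FPKM holds no counts, so no counting interval can be given. FPKM were rescaled by median ratios over 16018 genes, and genes averaging 1 FPKM or more were tested with limma 3.58.1 (R 4.3.3, lmFit and eBayes with trend, tested on simulated data) on log2(value + 1), with 4 group means, 12 libraries, 8 residual degrees of freedom, and Benjamini-Hochberg adjustment within each of 7 comparisons, threshold 0.05. This scale understates changes of low genes. Alternatives were other scalings, pseudocounts, filters, gene types, variance models, weights, a replicate block and left-out libraries. Up to 4 genes per pathway list, those with the smallest adjusted p, were named, with Il17f and Il22 always named, and 1 gene of the lists is not reported here. Outside this rule, Tgfbr2, Maf, Il6st, Il17ra, Sgk1, Tyk2, Eomes and Il2 were named after their values were seen. Each had passed in a comparison averaged over condition or genotype. The members and lists were chosen with earlier results of these data known. Symbols and gene coordinates came from GENCODE on GRCm38.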

Additional observations from a re-analysis of the deposited data

How the results depend on the processing

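In KO against WT averaged over condition 2 genes of the Th17 program were called, with 106 of all tested genes. The count was 5 with values as deposited (13.7% of all genes called), 4 among protein-coding genes only (4.09%), 4 with library weights (10%) and 3 with scaling by CD4 T cell markers (21.1%, nearly all lower). It was 1 with a pseudocount of 0.1, and 0 with a pseudocount of 5, with libraries scaled to a common sum, without the filter on low values, without the mean-variance trend, or without the 3 libraries that stood apart, and 0 to 3 with 1 library left out. In IRI against control averaged over genotype 1 gene was called, with 2639 of all tested genes. That count was 0 as deposited, with a common sum, without the filter, and without the 3 libraries. It was 2 among protein-coding genes (25% of them called), with library weights (22.4%) and with scaling by CD4 T cell markers (57.7%), and 0 to 1 with 1 library left out. In WT IRI against WT control the count of 1 became 0 as deposited, with a common sum, with a pseudocount of 5, without the filter, without the trend and without the 3 libraries. It became 2 with scaling by CD4 T cell markers (55.1%), and ran from 0 to 1 with 1 library left out. In KO IRI against WT IRI the count of 0 (11 of all genes called) became 1 with library weights (428 called) and 2 with scaling by CD4 T cell markers (4995 called). The scaling by CD4 T cell markers and the removal of the 3 libraries were chosen after seeing the data. Without the filter more genes were tested, and without libraries fewer samples. The cause of the other changes was not tested.

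Tmem176b changed sign under scaling by CD4 T cell markers, to 0.13 in IRI against control and 0.04 in WT IRI against WT control. Among the other alternatives for single genes and ratios, 1016 kept their side of the threshold, of which 41, all uncalled, changed sign, 62 lost a call and 23 gained one. Most of those 1016 belong to results without a call. Between genotypes, Ccr6 passed in 2 of 12 leave-one-out fits and 6 of 13 other settings, and Tmem176a in 2 and 7. With injury, Tmem176b passed in 4 of 12 and 8 of 13 averaged over genotype, and in 3 and 5 within WT. The replicate numbers did not pair the samples: of 18 pairs of libraries with the same number, 1 deviated together at a correlation above 0.1 (range −0.0337 to 0.206). With the replicate block 0 genes were called between genotypes (29 of all genes) and 2 between IRI and control. FPKM without counts leaves the precision of low genes such as Il23r, Il1r1 and Il22 unknown.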
